A study of Homo sapiens with 8 samples.

Results

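The genes of 5 human enzymes that methylate histone H3 at lysine 36 were examined for the mark itself: SETD2, NSD1, WHSC1 (NSD2 in RefSeq), WHSC1L1 (NSD3 in RefSeq) and ASH1L. The peaks described are those of H3K36me3 that touch an hg19 gene span by at least 1 bp, namely 42 of 23488 peaks in SETD2 knockdown cells and 42 of 35375 peaks in control cells. H3K36me3 was profiled by ChIP-seq in HepG2, a human hepatocellular carcinoma line, with input DNA sequenced beside each immunoprecipitate. The knockdown cells stably carried an shRNA against SETD2, and the control cells stably carried a non-specific shRNA; both had been infected with lentivirus in 4 µg/mL polybrene and selected with 1 µg/mL puromycin. The 8 libraries form 4 groups of 2 replicates: immunoprecipitate and input from knockdown cells, and the same pair from control cells. The authors pooled both replicates before calling peaks, so each condition is represented by 1 list, and the files hold no spread between replicates from which the conditions could be tested. The sources used here do not give how many hairpins were used or whether the cells were clonal. SETD2 transcript or protein was not analysed here, so the depth of the knockdown is not checked by these data, nor were liver marker genes.

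H3K36 methylation is built in steps. SETD2 travels with elongating RNA polymerase II and is the main enzyme that completes trimethylation in human cells, so that H3K36me3 covers transcribed gene bodies and is usually sparse at their starts. NSD1, WHSC1 and WHSC1L1 form the NSD family, which places mainly the lower methylation states of the same residue, and ASH1L, a trithorax-group protein, does likewise. SETD2 is a tumour suppressor in kidney cancer. NSD1 is mutated in Sotos syndrome, WHSC1 lies in the Wolf-Hirschhorn region and is activated by translocation in multiple myeloma, and WHSC1L1 lies near FGFR1, with which it is often amplified. In the knockdown the gene that encodes the writer of this mark was thus itself among the genes whose chromatin carried it.

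The pooled immunoprecipitates held 67053273 tags in the knockdown and 47880817 tags in the control after removal of duplicates, so the knockdown was the more deeply sequenced. Peaks held 12.8% of the knockdown tags and 42.0% of the control tags. Tag density, the measure used below, is the number of tags in a peak per kb of its width per 1000000 filtered tags. Its value outside peaks was 0.337 in the knockdown and 0.235 in the control. Densities and tags per 1000000 are relative to all filtered tags of the same condition, so they are not absolute amounts of H3K36me3. A knockdown density refers to knockdown peak bounds and a control density to control peak bounds, and the 95% Poisson intervals cover counting error only. FDR is the false discovery rate that the authors' caller gave each peak.

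Of the 5 genes, 4 carried H3K36me3 peaks in both conditions, and over each of these 4 the covered length and the tag density were lower in the knockdown. NSD1 was the exception, with 2 weak peaks in the knockdown and no peak in the control. Most knockdown peaks over the other genes were also weakly supported. The median FDR of the 42 knockdown peaks over the 5 genes was 58.4%, against 68.9% in the whole knockdown list. For the 42 control peaks over the genes it was 3.2%. With peaks at an FDR of 5% or less alone, only SETD2 had peaks in both conditions. The median over the 4 genes of knockdown over control covered length was 46.8%. Over the whole lists, peaks covered 111 Mb in the knockdown and 229 Mb in the control, a ratio of 48.4%. Over SETD2 and WHSC1 the knockdown list holds short pieces, inside broad blocks of the control list.

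**Figure D1:**
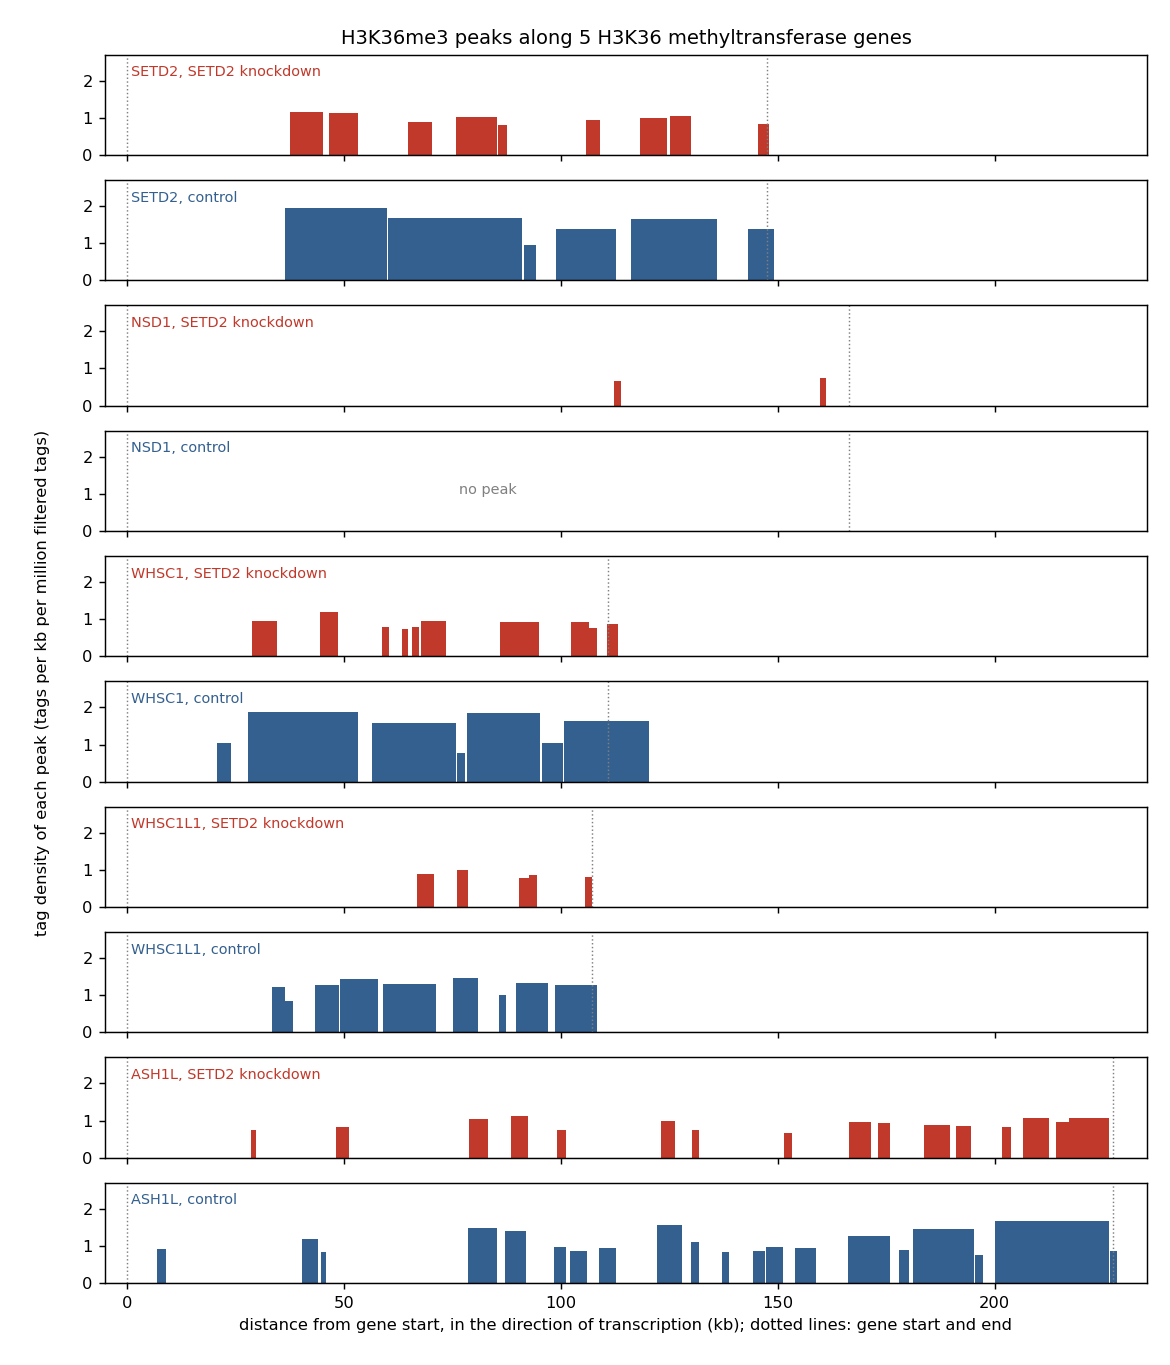
Peaks along each gene, drawn from the gene start in the direction of transcription (horizontal axis, kb), with the tag density of each peak as its height (tags per kb per 1000000 filtered tags); knockdown tracks are above control tracks, and dotted lines mark the gene start and end. Knockdown peaks have a median width of 3.17 kb against 4.83 kb for control peaks, with ranges that overlap. Knockdown peaks reach 1.18 in density, control blocks reach 1.95, and NSD1 has 2 knockdown peaks and no control peak.

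SETD2, on chromosome 3 from 47057898 to 47205467 (minus strand), was covered over 48.0 kb (32.5% of the gene) in the knockdown and over 95.2 kb (64.5%) in the control. The gene therefore kept 50.4% of its covered length. All its knockdown peaks together had a density of 1.01 (0.978 to 1.05), against 1.65 (1.61 to 1.69) for its control peaks. The log2 ratio of knockdown over control was -0.70 (exact 95% counting interval -0.76 to -0.65), a density 1.63 times lower in the knockdown. Tags in peaks over the gene came to 48.9 per 1000000 filtered tags in the knockdown and 159.6 in the control, so the knockdown held 30.7% (29.4 to 31.9%) of the control value. Over the whole lists the same share was 30.4%.

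The 9 knockdown peaks over SETD2 all lay inside 5 of its 6 control peaks. In the direction of transcription, the first 2 knockdown peaks ran from 47160371 to 47167904 at a density of 1.15 (1.06 to 1.25) and from 47152209 to 47158990 at 1.14 (1.04 to 1.24). The control peak around both ran from 47145615 to 47169107, was 23.5 kb wide and had a density of 1.95 (1.87 to 2.03). The summit of the first knockdown peak lay 70 bp from the control summit. This knockdown peak had an FDR of 4.34% and was the only one of the 42 over these genes at 5% or less, against 25 of the 42 control peaks. In the whole lists 5.30% of knockdown peaks and 50.5% of control peaks were at 5% or less. With such peaks alone SETD2 kept 12.3% of its covered length, and WHSC1, WHSC1L1 and ASH1L kept 0%.

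The next 3 knockdown peaks over SETD2, in the direction of transcription, had densities of 0.885, 1.01 and 0.796. They covered 55.6% of a control peak from 47114415 to 47145374, the widest over any of the 5 genes at 31.0 kb, with 2474 tags and a density of 1.67 (1.60 to 1.74). The FDR of this control peak was 5.99%, although it held more tags than any other control peak over the 5 genes; of the 4804 control peaks with 1000 or more tags, 9.51% had an FDR above 5%. A limit of 5% on FDR therefore removes the block at the centre of SETD2 from the control list. The control peak after it, 2.80 kb wide with a density of 0.955, was the only one without a knockdown peak. Further on, a knockdown peak of 0.940 lay in a control peak 13.9 kb wide of 1.38, and knockdown peaks of 0.991 and 1.04 lay in a control peak 19.6 kb wide of 1.64. The last peaks span the gene end, with 0.820 (0.686 to 0.972) in the knockdown peak and 1.38 (1.24 to 1.52) in the control peak. Every one of these knockdown densities was below that of the control peak around it, with intervals that do not overlap.

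WHSC1, on chromosome 4 from 1873123 to 1983934 (plus strand), was covered over 35.4 kb (31.9% of the gene) in the knockdown and over 81.7 kb (73.8%) in the control, the highest share of the 5 genes there. The knockdown thus kept 43.3% of the control length. Density was 0.933 (0.896 to 0.971) in the knockdown and 1.65 (1.62 to 1.69) in the control. The log2 ratio was -0.83 (-0.89 to -0.76), a density 1.77 times lower in the knockdown. Tags in peaks came to 35.2 per 1000000 in the knockdown and 150.9 in the control, or 23.3% (22.3 to 24.5%).

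The 10 knockdown peaks over WHSC1 lay inside 4 of its 7 control peaks. The first 2 knockdown peaks had densities of 0.944 (0.850 to 1.05) and 1.18 (1.06 to 1.31). The control block around them, from 1901042 to 1926421, had a density of 1.87 (1.79 to 1.94) and a fold enrichment of 16.69 by the authors' caller, the highest value of any peak over these genes. The summit of the second of these lay 93 bp from the control summit. The next 4 knockdown peaks had 0.802, 0.749, 0.796 and 0.938, inside a control block of 1.57 from 1929612 to 1949055. The block from 1951415 to 1968255 had 0.937 (0.861 to 1.02) in its 1 knockdown peak and 1.85 (1.76 to 1.94) in the control, with summits 20 bp apart. The last 3 knockdown peaks had 0.912, 0.773 and 0.882, inside a control block of 1.63 from 1973774 to 1993386. That block runs 9452 bp past the gene end, where NELFA is the next protein-coding gene in RefSeq's order, so tags of the 2 genes cannot be told apart in that peak. The 3 control peaks without a knockdown peak were narrower, at 3.33, 1.76 and 4.83 kb, with densities of 1.05, 0.770 and 1.04.

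WHSC1L1, on chromosome 8 from 38132561 to 38239790 (minus strand), kept the least. The knockdown covered 11.7 kb (10.9% of the gene) and the control 54.8 kb (51.1%), so 21.4% of the covered length was kept. Density was 0.878 (0.814 to 0.946) in the knockdown and 1.31 (1.27 to 1.35) in the control, a log2 ratio of -0.58 (-0.70 to -0.46). Tags in peaks came to 10.3 per 1000000 in the knockdown and 73.2 in the control, or 14.1% (13.0 to 15.3%). Its log2 ratio was closer to 0 than that of WHSC1, with intervals that do not overlap, although it kept less of its covered length. The knockdown density counts only length inside listed knockdown peaks, so control length without a knockdown peak does not enter it. The ratio therefore does not measure the change over the whole gene.

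The 5 knockdown peaks over WHSC1L1 lay inside 4 of its 9 control peaks, all in the later part of the gene. In the direction of transcription their densities were 0.901, 1.01, 0.785, 0.849 and 0.796, and they were 1.61 to 3.84 kb wide. The control peaks around them had densities of 1.31, 1.46, 1.32 and 1.29 and were 5.75 to 12.3 kb wide. The first 4 control peaks had no knockdown peak, with densities of 1.22, 0.843, 1.28 and 1.43. The last of these, from 38181977 to 38190789, was 8.81 kb wide with 603 tags and a listed FDR of 0%, and was the widest control peak without a knockdown peak over any of these genes. The other control peak without one, 1.76 kb wide, had a density of 0.996.

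ASH1L, on chromosome 1 from 155305052 to 155532324 (minus strand), is the longest of the 5 genes and had the highest kept length as measured here. Counting only control length that the knockdown also covered, ASH1L was at 49.9% and SETD2 at 50.4%, and with a fold enrichment of 5 or more ASH1L kept 16.8% and WHSC1 17.2%. The knockdown covered 58.9 kb (25.9% of the gene) and the control 104.5 kb (46.0%), or 56.3% of the control length. Density was 0.952 (0.922 to 0.983) in the knockdown and 1.31 (1.28 to 1.34) in the control. The log2 ratio was -0.46 (-0.52 to -0.41), a density 1.38 times lower in the knockdown. Tags in peaks came to 56.1 per 1000000 in the knockdown and 138 in the control, or 40.5% (38.9 to 42.2%).

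The 16 knockdown and 20 control peaks over ASH1L were spread along its length. Of the 3 knockdown peaks with most tags, the one from 155306103 to 155315230 had a density of 1.06 (0.983 to 1.15). The next, from 155319889 to 155325834, had 1.07 (0.974 to 1.18). Both lay near the gene end, in the control peak with most tags, which ran from 155306063 to 155332331 with a density of 1.68 (1.61 to 1.75). The last of the 3, from 155342528 to 155348536, had 0.886 (0.796 to 0.983), and the control peak around it, from 155337027 to 155351206, had 1.45 (1.36 to 1.55). The other of the 3 control peaks with most tags, from 155356408 to 155366118, had 1.26 (1.16 to 1.37), and knockdown peaks covered 82.0% of it. Of the 20 control peaks, 8 had a knockdown peak. ASH1L was also the only gene of the 4 with knockdown peaks outside control peaks: 3 peaks of 1.32, 3.08 and 1.77 kb, with densities of 0.758, 0.819 and 0.668 and FDRs of 91.9%, 63.9% and 89.0%.

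NSD1, on chromosome 5 from 176560833 to 176727214 (plus strand), had no control peak. Its 2 knockdown peaks ran from 176672978 to 176674630, with 73 tags and a density of 0.659 (0.516 to 0.828), and from 176720446 to 176721992, with 78 tags and a density of 0.752 (0.594 to 0.938). Their FDRs of 89.4% and 83.2% are above the median of 75.99% over all 3991 knockdown peaks that overlap no control peak. Such peaks made up 17.0% of the knockdown list. The table lists only regions past the caller's limit, so the absence of a control peak is not a density of 0.

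NSD1, without a peak in the control, lay between marked neighbours. After its end, the nearest knockdown peak began 3.61 kb away, with a density of 1.27, and the nearest control peak 0.531 kb away, with a density of 1.21. These are different stretches, since the control peak ended at 176729785 and the knockdown peak began at 176730824. With NSD1 widened by 5000 bp, all peaks together had a density of 1.03 in the knockdown and 1.80 in the control. Before its start, the nearest peaks had a density of 1.22 in the knockdown, 35.5 kb away, and of 3.14 in the control, 34.7 kb away. RefSeq's order places FGFR4 before NSD1 and RAB24 after it. Within 500 kb on both sides of the gene, peaks covered 110.6 kb in the knockdown and 219.8 kb in the control. Windows of 150 kb, near the size of the gene, with no control coverage made up 63.4% of 20221 windows over the autosomes and X. Knockdown coverage was found in 2.66% of those. The windows were not chosen by gene content, so they are not matched to a gene that lies between marked neighbours.

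**Figure D2:**
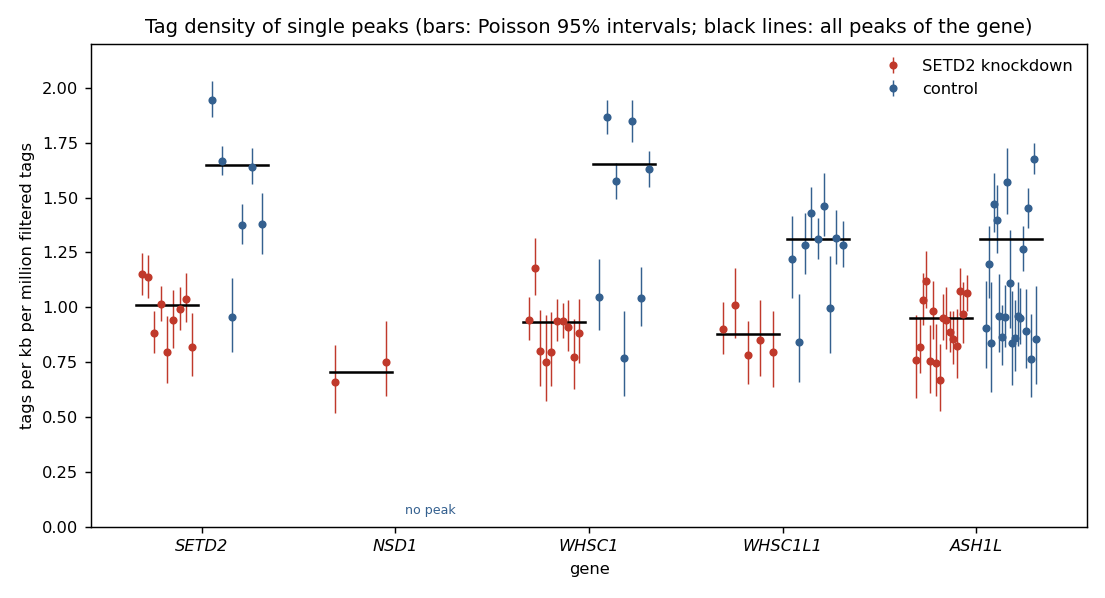
Tag density of each peak (points, tags per kb per 1000000 filtered tags; bars are 95% Poisson intervals) by gene, knockdown in red to the left and control in blue to the right; black lines give the density of all peaks of the gene together. The gene values run from 0.704 for NSD1 to 1.01 for SETD2 in the knockdown and from 1.31 to 1.65 in the control, and single peaks run from 0.659 to 1.18 in the knockdown and from 0.764 to 1.95 in the control, so the conditions overlap.

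By the density of all their peaks, the genes took a different order in each condition. In the knockdown the order was SETD2 at 1.01, ASH1L at 0.952, WHSC1 at 0.933, WHSC1L1 at 0.878 and NSD1 at 0.704 (0.596 to 0.825). The intervals of SETD2 and ASH1L overlap slightly, as do those of every other pair of neighbours in this order. In the control SETD2 and WHSC1 shared the top at 1.65 each, and ASH1L and WHSC1L1 followed at 1.31 each; within each pair the intervals overlap, and between the pairs they do not. The log2 ratios run from -0.83 in WHSC1 over -0.70 in SETD2 and -0.58 in WHSC1L1 to -0.46 in ASH1L. Neighbours in that order have overlapping counting intervals, WHSC1 and SETD2 lie apart from ASH1L, and WHSC1 lies apart from WHSC1L1. All peaks of the lists gave -0.67. Leaving out NSD1, the knockdown densities spanned only 0.878 to 1.01, and the control densities 1.31 to 1.65. A peak is listed only past the caller's limit, so these ratios compare listed peaks, not whole genes. Taking the density outside peaks off both conditions moved every ratio further from 0, to -1.25 in WHSC1, -1.07 in SETD2, -0.99 in WHSC1L1 and -0.81 in ASH1L.

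The counts of peaks over the genes were equal at 42 and 42, while the whole list was shorter in the knockdown. A knockdown peak overlapped 21 of the 42 control peaks (50%, exact 95% binomial interval 34.2 to 65.8%), against 39.5% of the whole control list. That interval treats the peaks as independent, although many share a gene, so it is likely too narrow and measures no spread between replicates. A control peak lay under 37 of the 42 knockdown peaks (88.1%), against 83.0% of the whole knockdown list. Of the 21 kept control peaks, 10 held 2 or more knockdown peaks, with up to 4 in 1 block over WHSC1 and over ASH1L; in the list 26.5% of kept control peaks held 2 or more. Kept control peaks over the genes had a median width of 12.3 kb and a median density of 1.46, and those without a knockdown peak 2.82 kb and 0.954. The list showed the same direction, at 7.37 kb and 1.45 against 2.61 kb and 0.978. Since a wide peak has more room to be overlapped, the rule itself favours this difference in width. A wide peak also has room for more pieces, and kept control peaks were wider over the genes than in the list. The shares with 2 or more knockdown peaks were not matched for width.

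Where knockdown peaks remained, some had their highest point close to that of the control, at about the rate of the whole list. This comparison was chosen after the values were seen. Of the 37 knockdown peaks on a control peak, 16 had a summit within 500 bp of a control summit, and the median distance was 635 bp. In the whole list 41.0% lay within 500 bp, near the share over these genes, and the median was 873 bp. The closest were 8, 22 and 70 bp apart in SETD2, 20 and 93 bp in WHSC1, and 35 and 41 bp in ASH1L. A block listed in several pieces has only 1 control summit, so most of its other pieces cannot lie near it.

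Few peaks over the genes matched closely enough in extent for a density ratio between single peaks. Pairs that each covered at least 50% of the other numbered 7: 6 over ASH1L, 1 over WHSC1 and none over SETD2 or WHSC1L1. All 7 had a lower density in the knockdown, as did 98.1% of the 7543 pairs in the lists. The pair over WHSC1 had a log2 ratio of -0.98 (-1.12 to -0.84), and those over ASH1L ran from -0.68 (-0.92 to -0.44) to -0.32 (-0.55 to -0.09). In 1 of the 6, at -0.35 (-0.75 to 0.05), the interval reaches past 0. Of the 7 pairs, 2 were at least 1.5-fold lower, against 50.1% of all pairs. The median over all pairs was -0.59, and on chromosome 1, which holds ASH1L, it was -0.46 (quartiles -0.68 and -0.26). On chromosome 4, which holds WHSC1, the median was -0.65 (quartiles -0.88 and -0.45).

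**Figure D3:**
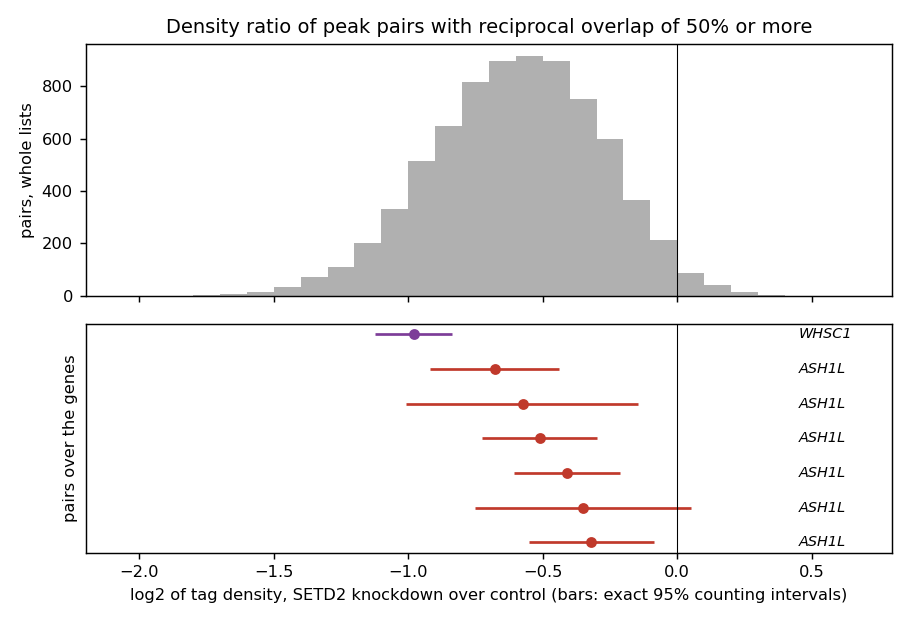
Upper panel: number of peak pairs in the whole lists by log2 ratio of tag density, knockdown over control; lower panel: the 7 pairs over ASH1L and WHSC1 with exact 95% counting intervals. All 7 points lie below 0, from -0.98 over WHSC1 to -0.32 over ASH1L, inside the spread of the whole lists.

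The genes were also set beside their surroundings. On its own chromosome the knockdown covered 51.6% of the control length for SETD2 (chromosome 3), 34.8% for WHSC1 (chromosome 4), 47.3% for WHSC1L1 (chromosome 8) and 68.7% for ASH1L (chromosome 1). SETD2, at 50.4%, was near its chromosome, WHSC1, at 43.3%, above it, and WHSC1L1 and ASH1L, at 21.4% and 56.3%, below theirs. The 500 kb on both sides kept more than the gene in all 4 cases, at 77.0% around SETD2, 55.5% around WHSC1, 34.0% around WHSC1L1 and 91.0% around ASH1L. Windows of 150 kb that control peaks covered over 75 kb or more numbered 495, and their median kept share was 42.7% (quartiles 25.8 and 59.0%). SETD2 stood above 61.8% of these windows, ASH1L above 71.5%, WHSC1 above 50.7% and WHSC1L1 above 19.6%; under 50% was kept in 61.6% of windows and in 2 of the 4 genes. As a share, the limit of these windows is 50% in the control, and ASH1L, at 46.0% of the gene, was below it. In length, ASH1L had 104.5 kb covered in the control, and WHSC1L1, at 54.8 kb, was below 75 kb.

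**Figure D4:**
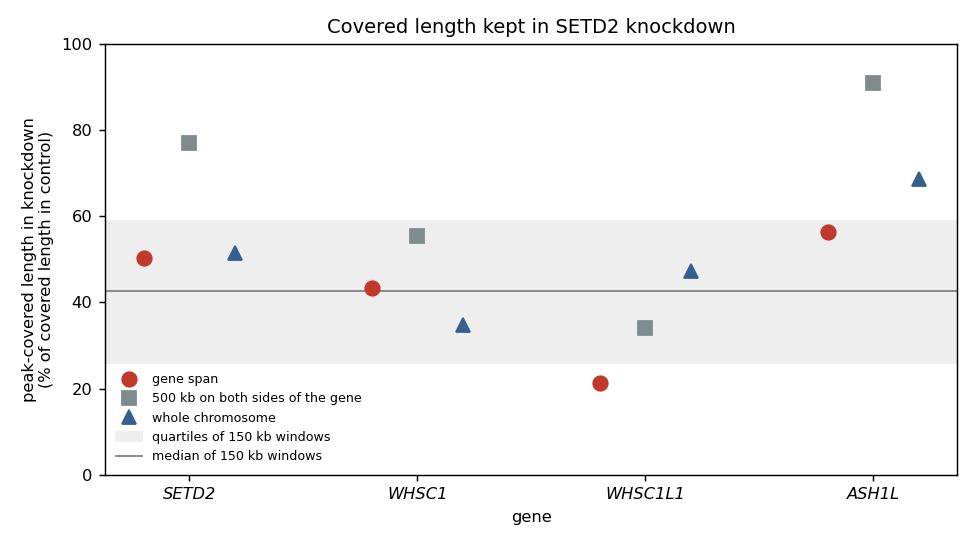
Length covered by peaks in the knockdown as a percentage of that in the control, for the gene span (circles), the 500 kb on both sides of it (squares) and its chromosome (triangles); the grey band and line are the quartiles and median of 150 kb windows. WHSC1L1, at 21.4%, lies below the band, the other 3 genes lie within it, and each square lies above its circle.

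Within the 4 marked genes the first base of the gene carried no peak and the later part was the more covered. In 10 equal segments along the direction of transcription, segments 1 to 5 of SETD2 were covered over 27.1% in the knockdown and 50.4% in the control, and segments 6 to 10 over 37.9% in the knockdown and 78.6% in the control. For WHSC1 the values were 18.1% in the knockdown and 51.8% in the control in the first 5 segments, and 45.8% in the knockdown and 95.7% in the control in the last 5. WHSC1L1 had 0% in the knockdown and 27.6% in the control first, and 21.9% in the knockdown and 74.6% in the control later. ASH1L had 12.9% in the knockdown and 25.4% in the control first, and 38.9% in the knockdown and 66.5% in the control later. The last segment of ASH1L was covered over 79.5% in the knockdown and 98.5% in the control, and segment 3 of ASH1L was the only one of the 4 genes with more coverage in the knockdown, at 13.5% against 1.55% in the control. In each of the 4 genes and both conditions the later 5 segments were the more covered, and the 2 knockdown peaks over NSD1 lay in segments 7 and 10.

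**Figure D5:**
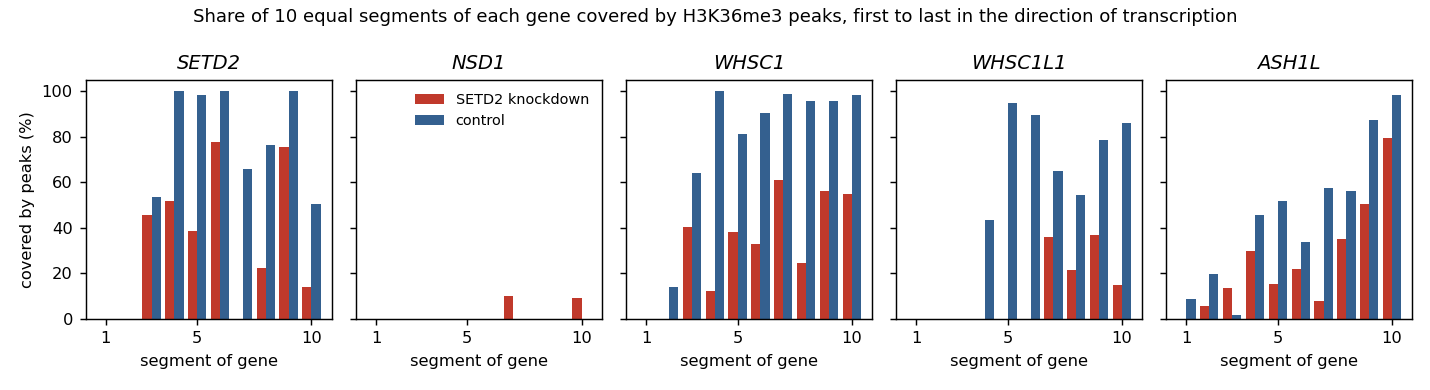
Share of each of 10 equal segments of a gene that peaks cover (vertical axis, %), numbered in the direction of transcription, with the knockdown in red left of the control in blue. The first segment is empty except over ASH1L in the control (8.52%), and in WHSC1L1 the knockdown is at 0% up to segment 6 while the control reaches 94.7% in segment 5.

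No peak of either list reached the first base of any of the 5 spans. The first peak began 37.6 kb into SETD2 in the knockdown and 36.4 kb in the control. In WHSC1 it began at 28.8 kb in the knockdown and 20.6 kb in the control, in WHSC1L1 at 66.8 kb in the knockdown and 33.4 kb in the control, and in ASH1L at 28.5 kb in the knockdown and 6.95 kb in the control. In all 4 genes the first peak thus began further downstream in the knockdown, with the smallest shift in SETD2. In SETD2, WHSC1 and WHSC1L1 every knockdown peak lay inside a control peak. Their first knockdown peak could therefore not begin before the first control peak, and the direction carries no information there. The first control peaks of WHSC1 and ASH1L had FDRs of 7.24% and 9.37%, those of SETD2 and WHSC1L1 3.54% and 2.86%.

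Since no peak reached a gene start, the promoters of the 3 marked genes with 1 entry each in RefSeq on GRCh38.p14 are shown for their base makeup. Each runs 5′ to 3′ on the strand of the gene, from 250 bases before to 50 after the start, and capitals mark every CG. Their positions are on GRCh38.p14, not hg19, and were not matched to the starts of the gene spans.

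SETD2, chr3:47164064-47164363, minus strand: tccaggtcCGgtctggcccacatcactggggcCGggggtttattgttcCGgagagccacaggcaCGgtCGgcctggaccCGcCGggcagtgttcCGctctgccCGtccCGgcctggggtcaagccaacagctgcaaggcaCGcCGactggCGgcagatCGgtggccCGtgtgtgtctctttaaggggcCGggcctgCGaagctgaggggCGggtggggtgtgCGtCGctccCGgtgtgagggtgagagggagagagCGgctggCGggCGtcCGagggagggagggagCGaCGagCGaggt
WHSC1 (NSD2), chr4:1871143-1871442, plus strand: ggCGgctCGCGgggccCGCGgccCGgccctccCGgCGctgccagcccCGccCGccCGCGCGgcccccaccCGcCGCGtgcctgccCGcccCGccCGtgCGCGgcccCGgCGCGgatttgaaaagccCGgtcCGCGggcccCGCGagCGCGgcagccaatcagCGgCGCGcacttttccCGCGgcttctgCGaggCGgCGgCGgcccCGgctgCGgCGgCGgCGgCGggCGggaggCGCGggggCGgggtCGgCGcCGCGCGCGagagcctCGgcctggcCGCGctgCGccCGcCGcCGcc
ASH1L, chr1:155562754-155563053, minus strand: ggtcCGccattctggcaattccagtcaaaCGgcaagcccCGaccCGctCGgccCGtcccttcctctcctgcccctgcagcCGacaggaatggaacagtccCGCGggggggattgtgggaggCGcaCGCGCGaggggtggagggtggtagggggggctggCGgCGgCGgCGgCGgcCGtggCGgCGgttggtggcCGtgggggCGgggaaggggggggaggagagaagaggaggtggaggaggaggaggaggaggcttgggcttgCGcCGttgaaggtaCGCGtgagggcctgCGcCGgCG

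The window of SETD2 holds 28 CG, that of WHSC1 63 and that of ASH1L 30, against a median of 14 over 35116 promoters of 300 bases, of which 96.0% hold at least 1. More CG than in 73.8% of all promoters were found at SETD2, 99.95% at WHSC1 and 77.6% at ASH1L. The 5 windows listed for NSD1 held 7 to 48. TATAAA on either strand was in none of these 8 windows and is in 11.5% of all promoters. These letters only describe the windows.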

How the data were processed

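H3K36me3 ChIP-seq and input libraries of HepG2 cells with an shRNA against SETD2 or a control shRNA were analysed from the authors' peak lists, with groups taken from the sample titles. The submitters' processing notes name hg19, Bowtie 1.1.2 and FastQC 0.11.5. MACS 1.4.2, per the file headers, called peaks from 1 merged alignment of both replicates against 1 merged input per condition, with a p-value limit of 1e-05, a bandwidth of 300 bp, a fragment size of 294 bp, tags of 50 bp and 1 duplicate per position. The deposited tag counts are whole numbers per peak, not normalized. The deposited fold enrichment is a ratio over local background, the deposited score is minus 10 times the log10 of the peak's p-value, and the deposited FDR is in percent. They served to describe or filter peaks, and FDRs and limits were also set side by side for the lists. Each value came from the peak call of its own condition and was not matched between the lists. The highest listed FDR was 92.83% in the knockdown and 18.77% in the control. The shorter deposited lists, compared peak by peak, held the 1244 knockdown and 17856 control peaks at an FDR of 5% or less.

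Gene spans on hg19 came with the rule for the 5 genes; strands came from RefSeq, or for WHSC1L1 from general knowledge. Covered length was clipped to the span, while tags and widths of peaks that cross its ends were used whole. Overlap meant 1 bp or more. With 1 pooled library per condition no test between conditions was made. Poisson and exact conditional 95% intervals cover counting error only. The Clopper-Pearson 95% interval of the overlap share treats peaks as independent, although many share a gene. The sources used here do not say whether replicates came from separate cultures. All peaks were named where a list had 10 or fewer over a gene, otherwise the 3 with most tags. Members, lists and comparisons were chosen with earlier results of these data known. Planned further genes, partners of these enzymes and cell markers were not analysed here, because no hg19 coordinates were used for them. RefSeq promoters matched 4 of the 5 genes. Steps were tested on simulated data. Python 3.11.15, pandas 2.3.3, NumPy 2.4.6, SciPy 1.17.1 and matplotlib 3.10.9 were used.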

Additional observations from a re-analysis of the deposited data

How the results depend on the processing

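The main values were a median kept length of 46.8% and a median log2 density ratio of -0.64 over the genes with a value, and 42 peaks in each condition. With an FDR of 5% or less these became 0%, -0.54 (SETD2 alone), 1 knockdown peak and 25 control peaks, and with a fold enrichment of 5 or more 15.1%, -0.59 (3 genes), 6 knockdown peaks and 25 control peaks. Fewer peaks enter under both limits; SETD2 kept 12.3% under the FDR limit and 13.4% under the fold limit, WHSC1L1 kept 0% under both, and WHSC1 and ASH1L kept 0% under the FDR limit. Widening each gene by 5000 bp moved the median ratio to -0.70. NSD1 then held 3 knockdown peaks and 2 control peaks, with a density ratio of -0.81 but a kept length of 151.02%, more covered length in the knockdown than in the control. Merging peaks within 3000 bp left 29 knockdown peaks and 19 control peaks. Reciprocal pairs alone gave -0.73 (2 genes), and taking off the density outside peaks gave -1.03. A score of 100 or more, peaks at least 50% inside the gene and all tags as depth gave medians of 43.3 to 46.8% and of -0.64 to -0.62. Other windows had medians of 41.9 and 43.6%. No density ratio of a single gene changed sign under these settings. No paired analysis was possible because the authors merged the replicates before calling peaks, and for the same reason no replicate could be left out.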

Other observations

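Peaks next to the gene spans were also listed in both conditions. After the end of WHSC1L1 the nearest peaks had a density of 0.911 in the knockdown, 8.06 kb away, and of 1.76 in the control, 6.62 kb away. Before the start of WHSC1 the nearest peaks had 0.986 in the knockdown and 2.01 in the control. After the end of WHSC1 the next knockdown peak lay 251.7 kb away, and the next control peak 13.5 kb away. Before the start of SETD2 the next knockdown peak lay 121.99 kb away and the next control peak 5.35 kb away, while within 500 kb on both sides of SETD2 the knockdown covered 134.8 kb and the control 175.1 kb. These peaks lie outside the 5 gene spans and were assigned to no gene.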
